A study of Mus musculus with 3 samples.

Results

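The genes that encode the pre-B cell receptor's surrogate light chain and signalling chains (Igll1, Vpreb1, Vpreb2, Vpreb3, Cd79a and Cd79b) were followed through a list of EBF1-bound regions. A region of the deposited list was taken where the protein-coding gene nearest to its centre, within 100 kb, was 1 of these 6 genes, or where its centre lay within 50 kb of 1 of them. This took 18 of 4116 regions. Overlapping regions were merged, which left 9 of 2121 loci, each made of 2 overlapping regions, and each locus is given by its region of higher mean value over both libraries. All coordinates are GRCm38, counted from 1.

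The cells were pro-B cells grown from c-kit+ progenitors of the fetal liver of C57BL/6 embryos at day E16.5. All carried the Ebf1-/- genotype, a retroviral doxycycline switch (rtTA) and a retroviral NICD1, the signalling part of the Notch1 receptor, which 1 µg/ml doxycycline had induced for 6 hours. The EBF1wt group received wild-type EBF1 from a further retrovirus, and the EBF1E271A group received EBF1 with the amino acid substitution E271A. In both groups EBF1 was thus driven by a retrovirus and not by its own locus, and the cells had grown on OP9 feeder cells before the induction. Chromatin immunoprecipitation and sequencing (ChIP-seq) with an antibody to EBF1 gave 1 library per group, and an input library came from cells with wild-type EBF1. Without a group that lacks doxycycline, a response to NICD1 could not be measured. No value per region was used for the input here, and no transcript levels were used, so the label of pro-B cells could not be set against marker genes.

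EBF1 is a zinc-finger and helix-loop-helix protein that binds DNA as a dimer at a palindrome and switches on the early B cell genes. Igll1 encodes λ5, and Vpreb1 and Vpreb2 encode VpreB proteins. These join into a surrogate light chain that pairs with the first immunoglobulin heavy chain before any true light chain is made. Cd79a and Cd79b encode Igα and Igβ, the transmembrane pair that passes the receptor's signal into the cell. Vpreb3 encodes a related protein that meets the heavy chain inside the cell, and Cd79a and Igll1 are textbook targets of EBF1.

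The deposited values are scaled counts per region of 300 bp, which per the labels were normalized with spike-in chromatin of the human B cell lymphoma line BJAB. All EBF1wt values were whole multiples of 1.5811 and all EBF1E271A values of 0.6325, so the unscaled counts, on which the intervals rest, followed by division. Over all regions these came to 515897 and 1105818 counts, so that the EBF1E271A values are the more precise ones. With 1 library per group there was no replicate error and no test between the groups. Intervals are exact 95% intervals (Poisson for a level, Clopper-Pearson binomial for a ratio), cover counting error only and take the scale as free of error. Ratios are EBF1E271A over EBF1wt.

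The loci of these genes were among the stronger ones of the series in both libraries. The median over the 9 loci was 249.8 scaled counts for EBF1wt and 235.3 for EBF1E271A, against 143.9 and 130.9 over all 2121 loci. In each library 6 of the 9 loci lay above the upper quartile of all loci, which was 205.5 for EBF1wt and 187.9 for EBF1E271A. The proximal Vpreb2 locus alone lay below the median of all loci, in both libraries. These are levels without an input, so they do not separate binding from a general ease of recovering the DNA.

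**Figure D1:**
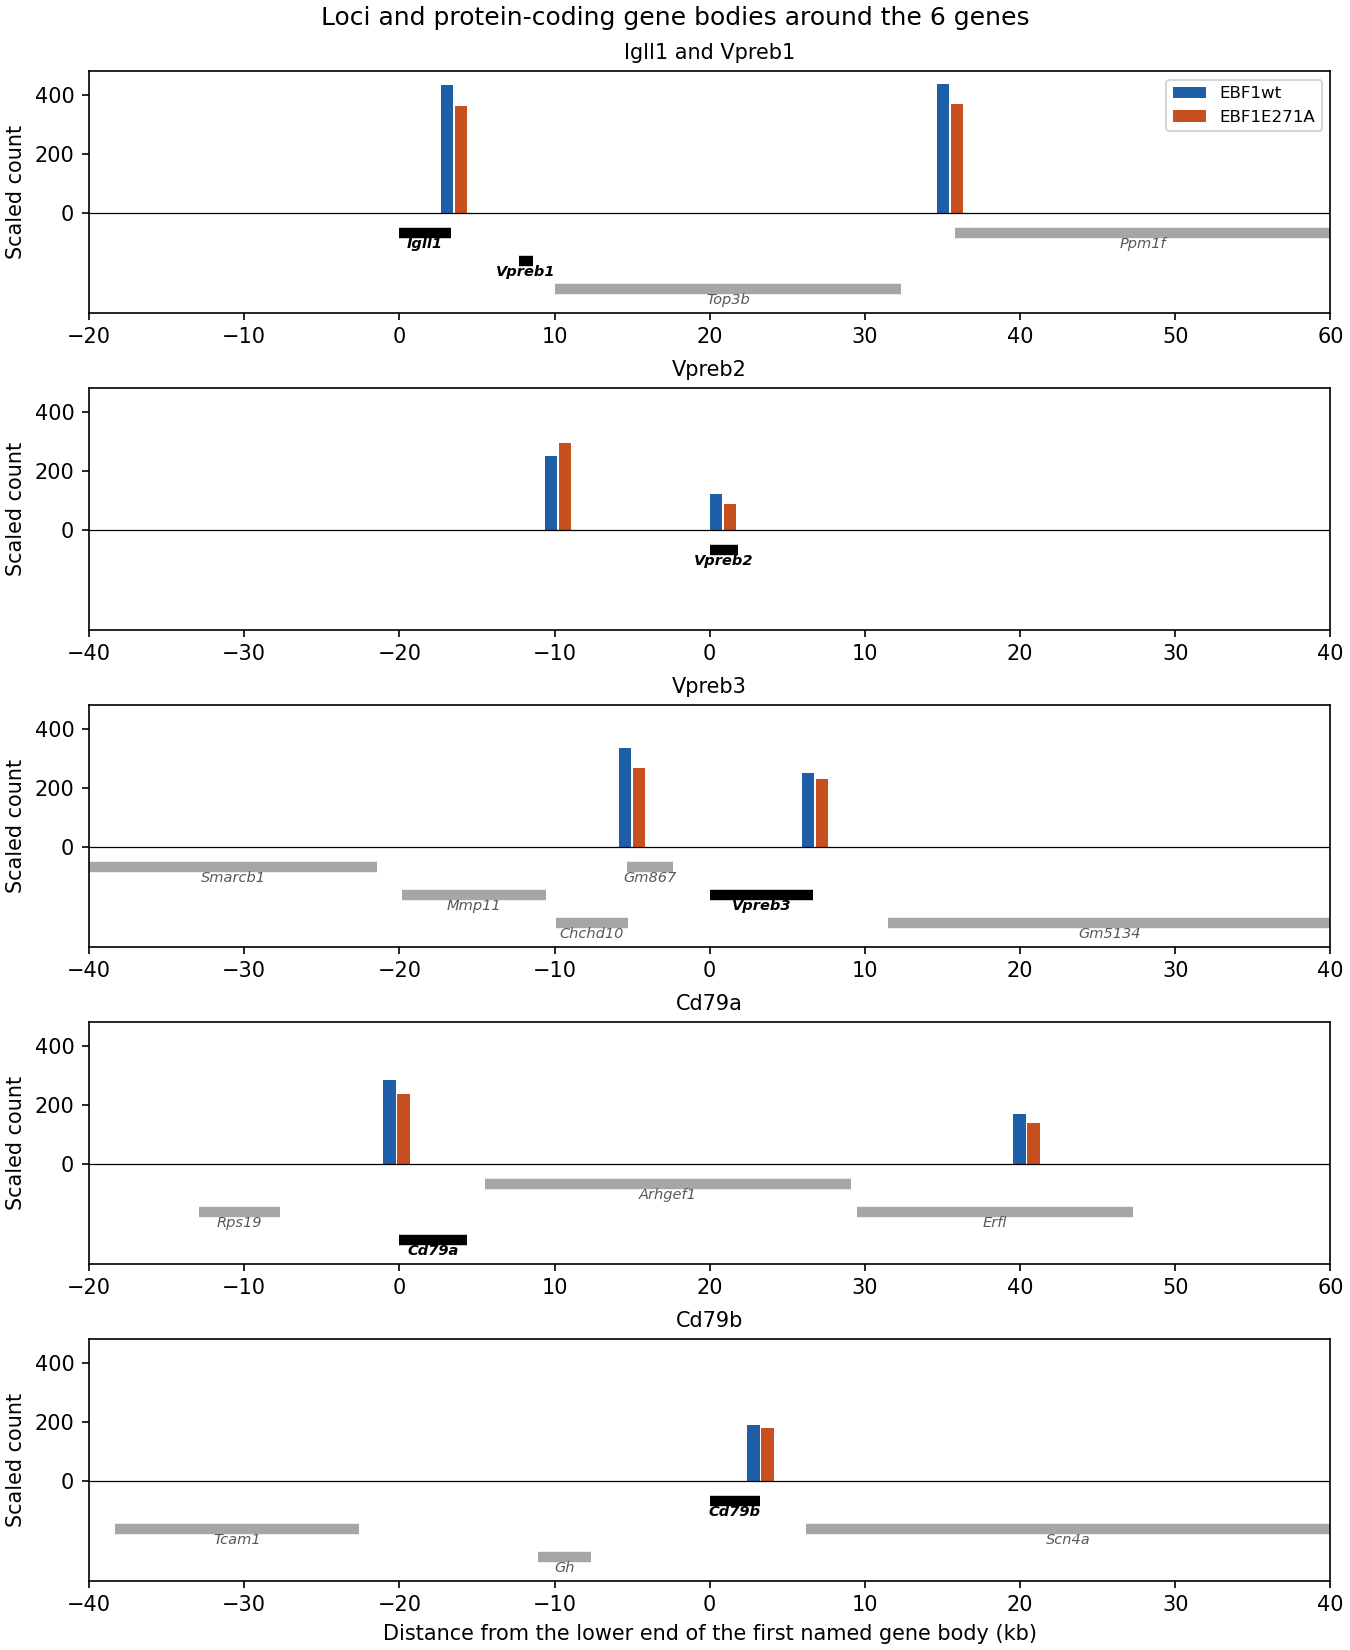
Protein-coding gene bodies (black: the 6 genes, grey: neighbours) and the EBF1wt and EBF1E271A scaled counts of every locus in 5 windows, by distance in kb from the lower end of the first named gene. Bars are drawn side by side and wider than the 300 bp regions, gene parts under 2 kb at a window edge are not drawn, and no locus stands at Vpreb1 itself, whereas Igll1, Vpreb2, Vpreb3, Cd79a and Cd79b each have one at a gene end or start site.

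The locus at the start of Igll1 (chr16:16864062-16864361) had 433.2 scaled counts in the EBF1wt library (95% interval 383.4 to 487.7) and 361.2 in the EBF1E271A library (332.1 to 392.0). The unscaled counts were 274 and 571. Its centre lay 226 bp upstream of the gene's start site, outside the gene body and in no other protein-coding gene. Of 2121 loci it ranked 79th in the EBF1wt library and 94th in the EBF1E271A library. The ratio was 0.834 (0.721 to 0.966). EBF1E271A was thus lower by more than counting error on the spike-in scale, but the interval held the median ratio of all loci, 0.896.

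RefSeq's promoter table for GRCm38.p6 (250 bases before and 50 after a start site) held 5 of the 6 genes, all but Cd79b. Only bases before the start site are shown. The stretch of the Igll1 locus that lies in this window (chr16:16864062-16864235, minus strand) is shown since it holds the centre of the strongest locus that has 1 of the 6 genes as its nearest gene. Capitals mark matches, on either strand, to the EBF1 palindrome (TCCC and GGGA with 2 bases of any kind between them), or to its parts TCCCNNGG, TCCCNNG and CCCNNGGG. A match to the palindrome is thus also one to each part, and a match to TCCCNNGG is also one to TCCCNNG:
Igll1: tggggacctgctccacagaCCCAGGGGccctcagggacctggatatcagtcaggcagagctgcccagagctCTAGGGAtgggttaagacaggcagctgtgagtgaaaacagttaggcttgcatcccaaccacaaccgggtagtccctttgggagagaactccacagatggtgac

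The capitals in Igll1 are 1 match to CCCNNGGG and 1 to TCCCNNG. The stretch also held 2 E-boxes (CANNTG, the motif of the E proteins that act beside EBF1). The RBPJ motif TGGGAA, bound by the partner of NICD1, was not among its letters, and neither was the full palindrome. Of all 32851 promoter windows, 13.7% held CCCNNGGG, 58.0% TCCCNNG, 22.6% TCCCNNGG, 0.904% the palindrome, 72.3% an E-box and 25.6% TGGGAA. Among the 218 windows that overlapped a region of the list, these shares were 53.7%, 87.6%, 56.9%, 21.6%, 64.2% and 27.5%. The EBF1 motifs were thus more frequent where regions lay, while E-boxes were somewhat less frequent there and TGGGAA was close to its general share. TCCCNNG and CCCNNGGG were chosen after the sequences had been seen, and a match is a description that does not by itself show binding. The shares are over windows of 300 bases and the Igll1 stretch has 174, so they are not the shares for its length.

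The second locus of this neighbourhood (chr16:16896019-16896318) was the strongest of the 9. It had 436.4 scaled counts for EBF1wt (386.4 to 491.0) and 368.1 for EBF1E271A (338.8 to 399.3), from 276 and 582 counts. It stood 301 bp before the body of Ppm1f, which encodes a protein phosphatase, and 26.9 kb from Vpreb1, with Top3b, the gene of a topoisomerase, between them. The promoter window of Ppm1f covered 100 bases of this region. They held none of the EBF1 motifs, no E-box and no TGGGAA, and the rest of the region was not searched. The ratio of 0.844 (0.730 to 0.977) nearly equalled that of the Igll1 locus, 32.0 kb away. In neither library did the levels of this pair of loci differ beyond counting error, with folds of 1.01 (0.849 to 1.19) for EBF1wt and 1.02 (0.907 to 1.15) for EBF1E271A.

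No region had Vpreb1 as its nearest gene. Vpreb1 is a short gene of 855 bp (chromosome 16, 16868401 to 16869255) whose body lies 4.42 kb from that of Igll1, and the Igll1 locus was the nearest one, 4.19 kb from its body. A region absent from this list shows only that no listed value exists there, since each region of the list exceeded 100 scaled counts in at least 1 library.

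Vpreb2, a close copy of Vpreb1 that lies 1110 kb away, had a locus at its start site and another one upstream. The proximal locus (chr16:17980168-17980467, centre 248 bp before the start site and inside the gene body as the gene table gives it) had 120.2 scaled counts for EBF1wt (94.7 to 150.4) and 86.7 for EBF1E271A (72.8 to 102.4). It rested on 76 and 137 counts, the fewest of the 9 loci, and its ratio was 0.721 (0.541 to 0.967). It was the weakest locus in both libraries, 1447th and 1831st of 2121, and like 491 loci of the series it exceeded 100 in the EBF1wt library alone, a class with ratios below 1 by construction.

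The distal locus (chr16:17969527-17969826, 9.77 kb from the Vpreb2 body and in no protein-coding gene) had 249.8 scaled counts for EBF1wt (212.4 to 291.9) and 292.8 for EBF1E271A (266.8 to 320.8). These came from 158 and 463 counts. It was the single locus of the 9 with the higher value in EBF1E271A, with a ratio of 1.17 (0.977 to 1.41). It ranked 330th in the EBF1wt library and 172nd in the EBF1E271A library. The distal and proximal loci lay 10.6 kb apart. The ratio at the distal locus was 1.62 times that at the proximal one (1.146 to 2.296, and 0.924 to 2.83 when widened for all pairs of the 9 loci). The scale between the libraries drops out of this value, but the proximal locus was listed through the EBF1wt library alone, so it is given as a description.

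The proximal Vpreb2 locus and the start of Vpreb1 share their sequence where the promoter windows allowed a comparison. This covered 51.0% of the Vpreb2 region, and the rest of that region was not compared. Over the 156 bases that both promoter windows hold, 153 were identical (98.1%), and 153 of these bases lie in the Vpreb2 region. The first 106 of them, all before both start sites, are shown because a listed region stood on the Vpreb2 copy (chr16:17980315-17980420, plus strand) and none on the Vpreb1 copy (chr16:16869256-16869361, minus strand). Capitals are as for Igll1:
Vpreb2: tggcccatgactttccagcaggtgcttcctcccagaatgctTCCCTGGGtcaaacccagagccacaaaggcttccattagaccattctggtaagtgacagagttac
Vpreb1: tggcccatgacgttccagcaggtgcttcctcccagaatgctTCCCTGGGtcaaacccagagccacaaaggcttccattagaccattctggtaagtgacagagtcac

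The copies differ at T12G and T104C, counted from the first base shown, with the base of Vpreb2 first. Both hold the same match to TCCCNNGG. The sources used here do not give how reads that fit both genes were counted, so counts at Vpreb1 and at the proximal Vpreb2 locus cannot be told apart with certainty, and the part of this in the low Vpreb2 values was not tested.

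Vpreb3 had a locus at the end of its body (chr10:75949661-75949960), 1510 bp downstream of the start site in the promoter table. Its values were 249.8 scaled counts for EBF1wt (212.4 to 291.9) and 230.2 for EBF1E271A (207.2 to 255.1), from 158 and 364 counts. The ratio of 0.922 (0.763 to 1.12) held both 1 and the median of all loci. In the EBF1wt library this locus had the same count as the distal Vpreb2 locus, while in the EBF1E271A library it was the lower one. The ratio of their ratios, 1.27 for distal Vpreb2 over Vpreb3, had an interval that held 1 (0.972 to 1.66).

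The other locus near Vpreb3 (chr10:75937879-75938178) lay 5.00 kb from its body, inside the predicted gene Gm867 and 278 bp from Chchd10, which encodes a mitochondrial protein. It had the higher value of the pair in both libraries, 333.6 scaled counts for EBF1wt (290.1 to 381.8) and 268.2 for EBF1E271A (243.3 to 295.0), from 211 and 424 counts. The ratio was 0.804 (0.680 to 0.953), the lowest after proximal Vpreb2. Its ratio and that of the Vpreb3 locus did not differ beyond counting error (1.15 for Vpreb3 over Gm867, 0.887 to 1.48).

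Of the signalling chains, Cd79a had the stronger locus. It stood 188 bp upstream of the start site (chr7:24897160-24897459), with 283.0 scaled counts for EBF1wt (243.1 to 327.7) and 235.3 for EBF1E271A (212.0 to 260.5), from 179 and 372 counts. The ratio was 0.831 (0.694 to 0.999), so its interval just missed 1. The locus ranked 238th in the EBF1wt library and 315th in the EBF1E271A library.

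The stretch of the Cd79a locus before the start site that the promoter table covers (chr7:24897247-24897459, plus strand) is shown because it holds the centre of the locus. Capitals mark 1 match to TCCCNNG on the opposite strand, the only one of these EBF1 motifs found in it:
Cd79a: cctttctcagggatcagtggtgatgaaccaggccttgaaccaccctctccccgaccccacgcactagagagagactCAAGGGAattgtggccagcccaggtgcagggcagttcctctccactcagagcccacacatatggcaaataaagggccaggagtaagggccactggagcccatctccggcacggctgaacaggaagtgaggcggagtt

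This match (chr7:24897323-24897329) lay near the middle of the region. The stretch held 2 E-boxes and no TGGGAA. In the promoter windows of the 5 genes with an entry, the palindrome was found in none, TCCCNNGG in Vpreb1 and Vpreb2 (22.6% of all windows and 56.9% of those at a region), and TCCCNNG, picked after these sequences were seen, in each (58.0% and 87.6%). TGGGAA was found in Vpreb2 alone (25.6% and 27.5%). This match (chr16:17980501-17980506) lay before the start site and outside the listed region.

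The further locus within 50 kb of Cd79a lay 36.0 kb away inside Erfl, an ETS-related gene (chr7:24937754-24938053). It had 167.6 scaled counts for EBF1wt (137.2 to 202.7) and 139.2 for EBF1E271A (121.4 to 158.8), from 106 and 220 counts. Though weaker than Cd79a, it had nearly the same ratio, 0.830 (0.656 to 1.06). The ratio at Cd79a over that at Erfl was 1.00 (0.739 to 1.35).

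Cd79b had 1 locus, at the upper end of its body (chr11:106314466-106314765), whose 2 regions were exact duplicates. It had 189.7 scaled counts for EBF1wt (157.3 to 226.9) and 177.7 for EBF1E271A (157.6 to 199.8), from 120 and 281 counts. The ratio was 0.937 (0.754 to 1.17). Cd79a and Cd79b, whose proteins act as a pair, did not differ in ratio beyond counting error (1.13 for Cd79b over Cd79a, 0.8453 to 1.504), although Cd79a had the higher level in both libraries. The closest locus outside the 50 kb window, 77.1 kb from Cd79b and 3.56 kb from the adhesion gene Icam2, had 196.1 and 115.1 scaled counts and a ratio of 0.587 (0.465 to 0.744).

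**Figure D2:**
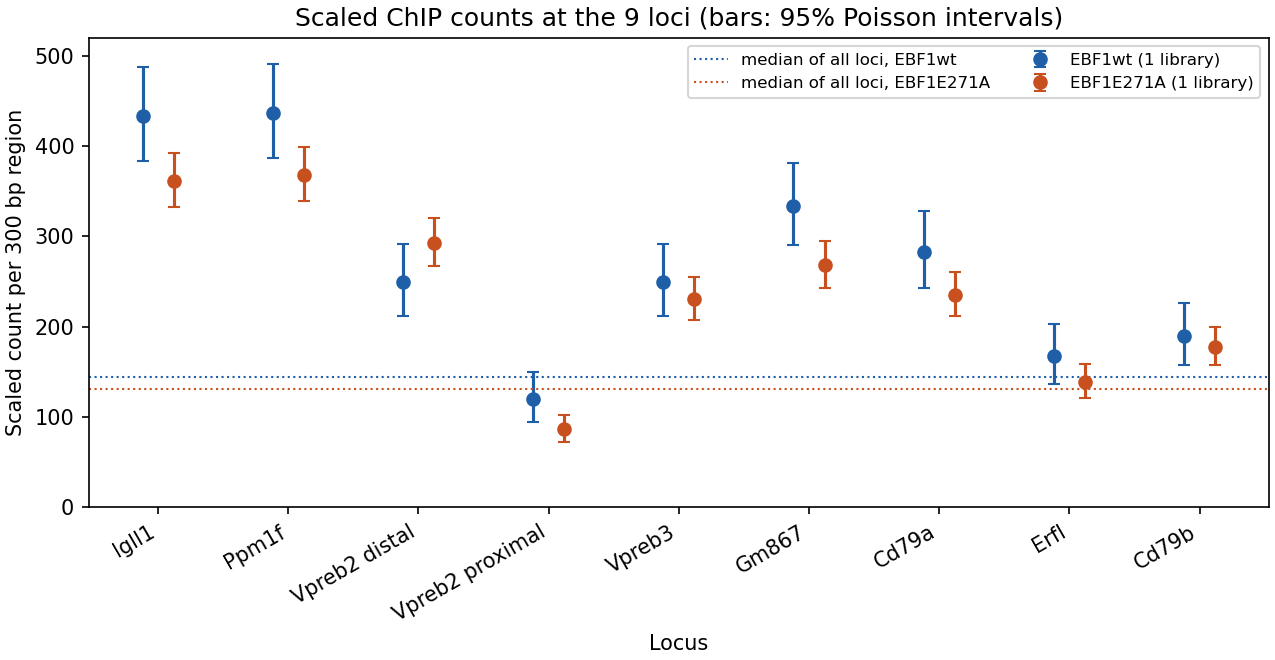
Scaled counts per 300 bp region (vertical axis, from 0) at the 9 loci in the EBF1wt and EBF1E271A libraries, 1 library each, with 95% Poisson intervals and dotted medians of all loci. Igll1 and Ppm1f are highest in both libraries, distal Vpreb2 is the single locus with the higher EBF1E271A value, and proximal Vpreb2 lies below both medians.

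Both libraries gave a similar order of the loci. In the EBF1wt library it ran Ppm1f, Igll1, Gm867, Cd79a, Vpreb3 with distal Vpreb2, Cd79b, Erfl and proximal Vpreb2. Among neighbours in this order, only Igll1 over Gm867 (1.30-fold, 1.08 to 1.56), distal Vpreb2 over Cd79b (1.32-fold, 1.03 to 1.68) and Erfl over proximal Vpreb2 (1.39-fold, 1.03 to 1.90) differed beyond counting error. In the EBF1E271A library distal Vpreb2 took the third place, below Igll1 by 1.23-fold (1.089 to 1.397) and above Gm867 by a fold whose interval held 1. The other loci kept their places relative to each other. Proximal Vpreb2 was again last, 1.61-fold below Erfl (1.29 to 2.00).

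On the spike-in scale most of the ratios lay below 1. The ratio was below 1 at 8 of 9 loci, against 67.2% of all loci, and ranged from 0.721 to 1.17. The interval lay below 1 at 5 of the 9 (Igll1, Ppm1f, proximal Vpreb2, Gm867 and Cd79a), against 29.8% of all loci, and above 1 at 0, against 8.11%. Cd79a is among these 5 with an upper bound of 0.999. The other overlapping region of that locus had a higher ratio, 0.841, and its interval is not given here. Proximal Vpreb2, listed through EBF1wt alone, had to have a ratio below 1, which leaves 7 of the other 8 ratios and 4 of the other 8 intervals below 1. The shares of 67.2% and 29.8% still include the 491 loci listed through EBF1wt alone. They are thus not the shares for these reduced counts, and shares without that class are not given here. No locus was at least 1.5-fold lower or higher (log2 ratio after a pseudocount of 1), against 14.1% and 3.11% of all loci. Of the 9 loci, 8 exceeded 100 scaled counts in both libraries, as did 1450 of all 2121.

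These counts moved with the scale. With both libraries set to equal sums over the regions, 6 of 9 ratios lay below 1, against 42.9% of all loci, and 0 of 9 intervals lay below 1, against 13.0%. On that scale the interval at distal Vpreb2 lay above 1 (1.37, 1.14 to 1.65), as did 21.8% of all. Relative to the median of all loci, which any common scale leaves in place, the median log2 ratio of the 9 loci was -0.10, from -0.26 for the 9 and -0.16 for all. It was -0.03 over the 6 loci whose nearest gene was 1 of the 6 genes. The interval of 8 of the 9 ratios held the median ratio of all loci, as did that of 1400 of all 2121 ratios. At distal Vpreb2 alone it lay above that median, as it did at 17.3% of all loci.

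**Figure D3:**
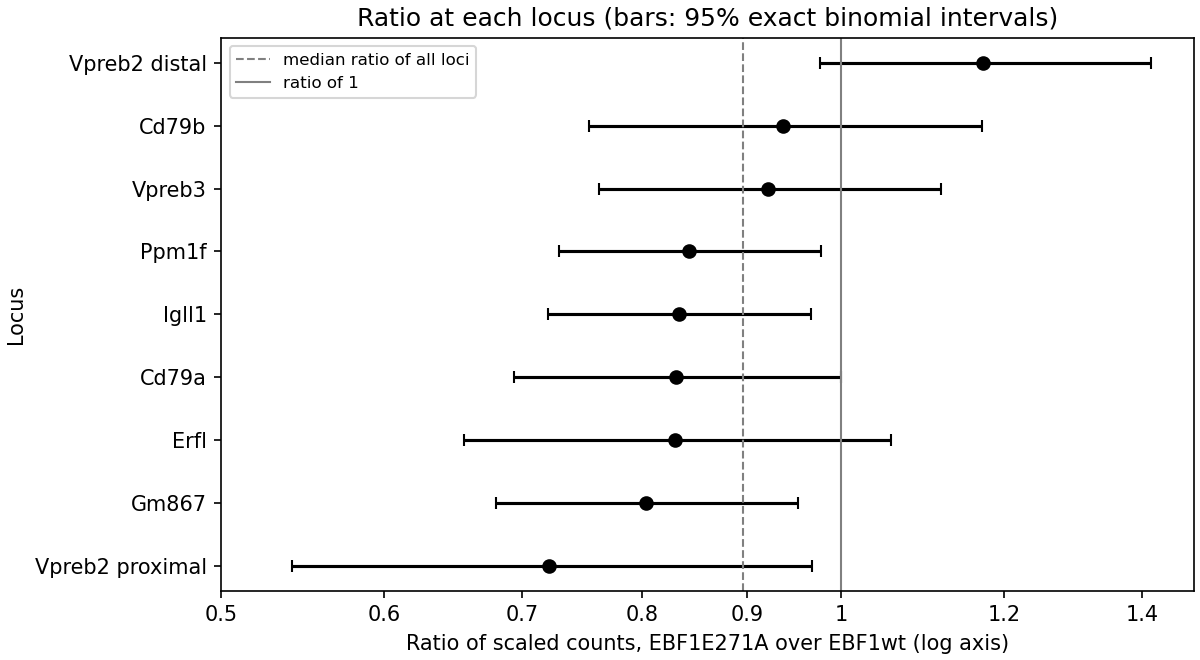
Ratio of scaled counts, EBF1E271A over EBF1wt, on a log axis at the 9 loci, with exact binomial 95% intervals; the dashed line is the median ratio of all loci (0.896) and the solid line a ratio of 1. Only the interval of distal Vpreb2 lies beyond the dashed line, and 5 intervals end below 1.

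The ratios of the 9 loci were then compared with each other, which needs no scale. Of the 36 pairs, 6 had a 95% interval that excluded 1, and distal Vpreb2 was the higher member in all 6: over proximal Vpreb2, Gm867, Erfl, Cd79a, Igll1 and Ppm1f, by 1.39 to 1.62 times. Its intervals against Vpreb3 and Cd79b held 1. With the intervals widened for 36 comparisons, 0 pairs excluded 1. At this depth no pair of these loci was thus separated in its ratio once all 36 were allowed for. Of the 4 pairs of loci that lie in the same neighbourhood, Igll1 with Ppm1f, Cd79a with Erfl and Vpreb3 with Gm867 had intervals that held 1 without the widening as well.

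**Figure D4:**
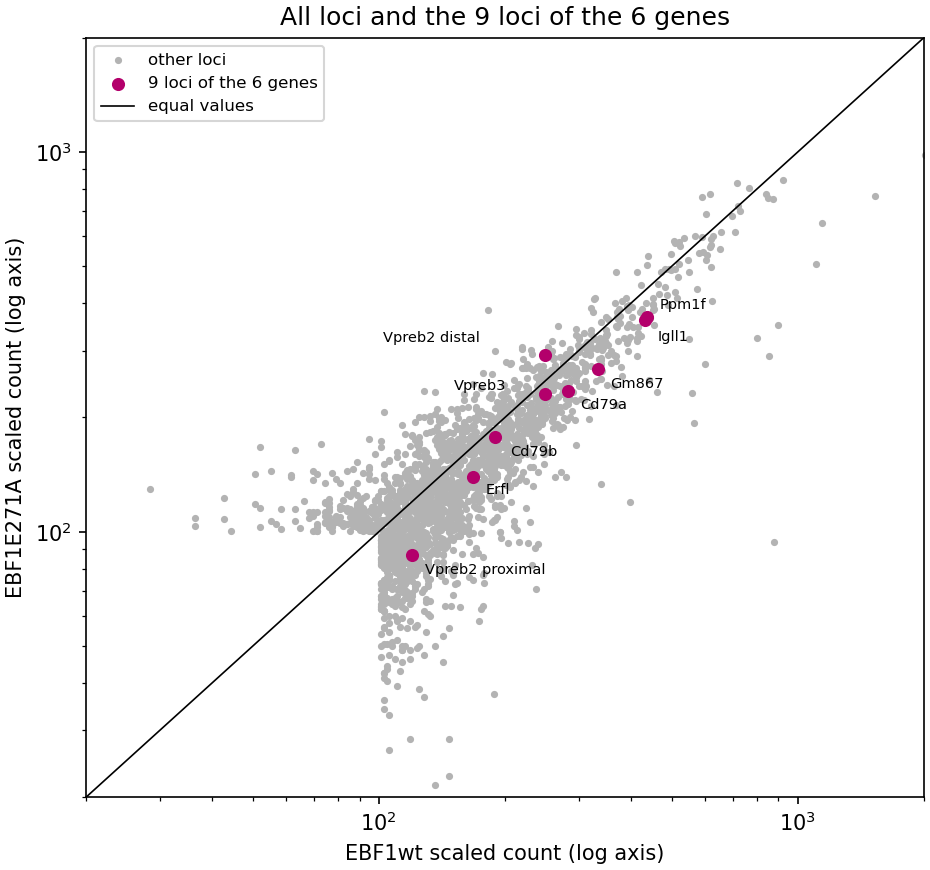
EBF1wt (horizontal) against EBF1E271A (vertical) scaled counts on log axes from 20 to 2000, with the 9 loci of the 6 genes in colour, the other loci in grey and a line of equal values; 10 loci fall outside the axes. The 9 loci lie inside the cloud, most of them in its upper part, and proximal Vpreb2 lies below 100 on the EBF1E271A axis, where each grey locus exceeds 100 on the other axis.

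The loci closest in mean value to the 2 strongest of the 9 gave ratios for sites of like strength. Closest to Ppm1f were loci beside Faap20 (0.772, 0.668 to 0.894), inside Ell3 (1.06, 0.916 to 1.23) and inside Hip1 (0.821, 0.711 to 0.951). Closest to Igll1 were loci 53.1 kb from Usp12 (0.972), 26.2 kb from Tusc1 (1.00) and 22.3 kb from Cux1 (0.416, 0.358 to 0.483). The ratios at Igll1 and Ppm1f lay within the range of these 6 loci, also without the Cux1 locus, which had the lowest ratio.

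Genes that act downstream of the same receptor were counted in the same list of regions. Of a set of 30 genes of pre-B cell receptor signalling, 29 were among the protein-coding genes of the table and 15 had a locus, 21 loci in all, none of them among the 9. The share of all protein-coding genes that had a locus is not given here, so the 15 cannot be called many or few. The median ratio of the 21 loci was 0.903. Ratios were below 1 at 15 of the 21, against 67.2% of all loci, 2 loci were at least 1.5-fold lower, against 14.1%, and 0 were 1.5-fold higher, against 3.11%. Among the strongest was a locus inside the adaptor gene Bank1 (273.5 and 314.4 scaled counts, ratio 1.15, 0.965 to 1.37) and another beside Pik3ap1, which encodes the adaptor BCAP (294.1 and 222.6, ratio 0.757, 0.632 to 0.909). The lowest ratio lay near the inhibitory receptor gene Cd72 (107.5 and 51.2, ratio 0.477, 0.341 to 0.668) and the highest at Ptpn6, the gene of the phosphatase SHP-1 (90.1 and 120.2, ratio 1.33, 0.987 to 1.83). At 17 of the 21 loci the value of each protein exceeded 100 scaled counts. Only the EBF1wt value did so at 3, Cd72 included, and only the EBF1E271A value at 1, Ptpn6. At such loci the rule of the list fixed the side of 1, so these extremes are given as a description. The 3 are part of the 15 ratios below 1, and Cd72 is 1 of the 2 loci at least 1.5-fold lower.

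Of 17 B lineage regulators, 5 had loci, 7 in all, with a median ratio of 0.972 and ratios below 1 at 4 of the 7, against 67.2% of all loci. For these 5 genes, too, the share over all protein-coding genes is not given here. The strongest were 2 loci inside Pax5, the commitment factor gene (330.4 and 304.9 scaled counts, and 213.4 and 193.5), and a locus at Pou2af1, which encodes a coactivator of immunoglobulin genes (189.7 and 196.7, ratio 1.04). The ratios ran from 0.805 at a locus 93.9 kb from Foxo1 to 1.13 inside Ebf1, and the 7 intervals all held the median ratio of all loci, as did those of 1400 of all 2121 loci. Igll1 and Ppm1f stood above each of these 7 loci in both libraries.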

How the data were processed

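Per the file headers, the table that the authors deposited holds a signal: scaled counts of each region, 1 column for EBF1wt and 1 for EBF1E271A. Per the labels, chromatin of human BJAB cells served as spike-in. The deposited list of positions, in other units (start and end), was identical to the table's. As tools, the submitters' processing notes list MACS2 2.2.7.1, Bowtie2 2.3.5.1, deepTools (3.3.2 and 3.5.0), bedtools 2.27.0 and SAMtools 1.10, and as mouse build GRCm38. The sources used here do not give their roles, the calling of regions or the scale factors.

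Every value was a whole multiple of its library's step within 0.001 counts (100% of values). Genes came from a RefSeq table of GRCm38.p6 (21900 protein-coding genes), distances run from a region's centre to the gene body, and start sites and strands came from its promoter table. Duplicate regions (31) were merged into loci. Positions were not split by exon, intron or UTR. Ratios of ratios carry conditional exact intervals of the odds ratio (SciPy 1.17.1). The ratio and its interval were tested on simulated data.

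All loci of the 6 genes are named, with 3 loci of highest mean value and those of lowest and highest ratio per list (1 of these is not reported here), and the 3 loci closest in mean value to each of the 2 strongest of the 9. Members and lists were chosen with earlier results of these data known.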

Additional observations from a re-analysis of the deposited data

How the results depend on the processing

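With equal sums of both libraries, the median log2 ratio of the 9 loci moved from -0.26 to -0.041 (-0.11 without the region of highest value in the sums), and that of the signalling list turned from -0.15 to 0.075; both shifts follow from that scale, which adds 0.22 to every log2 ratio (0.15 without that region). The number of intervals below 1 went from 5 to 0 and of those above 1 from 0 to 1, with equal sums with or without that region, counts added after the values were seen. Of all loci, 29.8% had an interval below 1 on the spike-in scale, 13.0% with equal sums and 17.1% without that region. The shares above 1 were 8.11%, 21.8% and 16.9%. Ratios below 1 numbered 16 of 18 with every region counted once and 5 of 6 where the nearest gene had to be 1 of the 6 genes, by construction of fewer or more units. Of all loci, 67.2% had a ratio below 1, and the share over all single regions is not given here. The difference of -0.10 from all loci was -0.03 under that last rule and -0.14 against the stronger loci, those whose mean value reached the median. Counts of 76 to 276 per locus for EBF1wt limit the precision of the ratios. No paired analysis was possible because each group holds 1 library.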
